A study of Mus musculus with 24 samples.

Results

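The 10 genes described here, Cd34, Meis1, Kit, Gata2, Adgrg1, Muc13, Slc22a3, Dach1, Slc18a2 and Grb10, are known from blood stem cells, early progenitors and mast cells, and were measured in T cells isolated from mouse spleen. They are 10 of 34113 genes in the deposited table and were selected on their higher counts in lymphoma than in control libraries of this series, so their lymphoma differences are given as a description, with no test. All 10 passed the filter on low counts in each of the 3 fits used. They are protein-coding genes that lie, on GRCm38 in GENCODE M21, on chromosomes 1 (Cd34), 5 (Kit), 6 (Gata2), 8 (Adgrg1), 11 (Grb10 and Meis1), 14 (Dach1), 16 (Muc13), 17 (Slc22a3) and 19 (Slc18a2). The mice were C57BL/6N, either Atm-/- (KO) or Atmwt/wt (WT). Atm is a kinase activated by breaks in DNA. The KO lymphoma and WT lymphoma groups had received a transplant of B-cell lymphoma, and the KO control and WT control groups had received none. CD8 and CD4 libraries came from the same mice, 3 libraries in each of 8 groups, 24 libraries from 12 pools of 22 mice. A library of the WT lymphoma groups holds 1 mouse, and libraries of the other groups hold 2 or 3 mice. The Atm allele, the age and sex of the mice, the lymphoma line, the time after transplantation and how CD8 and CD4 cells were separated are not given in the labels.

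Blood stem cells and progenitors live mainly in the bone marrow, where they depend on the growth factor receptor Kit and on transcription factors such as Gata2 and Meis1. The spleen of adult mice holds few of them at rest, and it is a known site of blood cell formation outside the marrow when the marrow is stressed or taken up by tumour. Kit and Gata2 stay on in mast cells, which mature in tissues, and basophils use Gata2 as well. T cells lose most of these transcripts as they develop in the thymus, while Adgrg1 is known from human cytotoxic lymphocytes as well.

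The 250 bases upstream of the annotated start were searched for short motifs of blood transcription factors, and 3 promoters that hold a motif of Gata2 or Meis1 families, themselves among the 10 genes, are shown. The sequences are from RefSeq on GRCm38.p6, read 5′ to 3′ on the strand of the gene, with the motif in capitals. Slc18a2 is on chr19:59260628-59260877 (plus strand), Dach1 on chr14:98169766-98170015 (minus strand) and Slc22a3 on chr17:12507705-12507954 (minus strand).
Slc18a2: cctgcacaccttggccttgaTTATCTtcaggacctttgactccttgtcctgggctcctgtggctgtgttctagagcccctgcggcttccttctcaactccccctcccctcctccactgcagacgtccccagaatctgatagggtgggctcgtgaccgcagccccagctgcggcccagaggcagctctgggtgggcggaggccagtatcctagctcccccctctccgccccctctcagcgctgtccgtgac
Dach1: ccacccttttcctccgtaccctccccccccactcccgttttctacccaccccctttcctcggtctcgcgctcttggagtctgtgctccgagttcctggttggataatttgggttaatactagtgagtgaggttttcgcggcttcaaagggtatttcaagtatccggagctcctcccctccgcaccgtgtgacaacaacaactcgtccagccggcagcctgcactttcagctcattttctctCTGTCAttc
Slc22a3: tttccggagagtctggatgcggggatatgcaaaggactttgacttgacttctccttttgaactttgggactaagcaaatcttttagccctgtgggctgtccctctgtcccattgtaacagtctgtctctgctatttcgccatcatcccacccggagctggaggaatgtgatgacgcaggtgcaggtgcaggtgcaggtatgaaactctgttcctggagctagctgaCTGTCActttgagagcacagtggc
The GATA motif AGATAA, or TTATCT on the other strand, was in the promoter of 1 of 10 genes, Slc18a2, where it begins 230 bases before the start, and in 9.99% of all 32851 windows of the same length. The MEIS motif TGACAG, or CTGTCA, was in 2 of 10 genes, beginning 9 bases before the start in Dach1 and 24 bases before it in Slc22a3, and in 15.9% of all windows. The RUNX motif TGTGGT (or ACCACA) and the ETS motif GGAAGT (or ACTTCC) were each found in 1 of 10 genes, Meis1, and in 14.0% and 19.7% of all windows. A match says only that these letters are in the window. All of the 10 genes had at least 1 RefSeq window, 15 windows in all, and the motifs do not overlap one another in the 3 sequences printed. Counted by window, as the shares are, GATA was in 1, MEIS in 2, RUNX in 1 and ETS in 1 of the 15.

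Total counts ran from 6470482 to 10196062 per library, so that 1 count was worth 0.0981 to 0.155 CPM (a share of the library total scaled to a common depth), and a count of 0 allows up to 3 counts. Atm had 26.9 to 107 CPM in KO libraries and 117 to 210 CPM in WT libraries, with no overlap, although the tag counted may lie outside the disrupted part of the gene. T cell genes, 18 of them with Cd3e, Trac and Lck among them, summed to between 1969 and 5810 CPM in KO libraries and between 3919 and 7181 CPM in WT libraries. The lowest of these sums, 1969 CPM, was in CD8 KO lymphoma 1, which also had the highest sums of erythroid genes, 66349 CPM, and of B cell genes, 874 CPM. In bulk libraries, a different number of cells of a type and a different amount of RNA per cell cannot be told apart.

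The 3 receptors and membrane proteins that mark progenitors on the cell surface, Cd34, Kit and Adgrg1, were higher in most lymphoma libraries than in controls. Cd34 encodes a sialomucin used to sort progenitors, and is also made by endothelium and mast cells. In CD4 libraries Cd34 had 12.4, 4.81 and 29.9 CPM in KO lymphoma libraries and 3.41, 13.5 and 18.2 CPM in WT lymphoma libraries, against 1.19, 1.88 and 1.56 CPM in KO control libraries and 1.10, 0.925 and 0.927 CPM in WT control libraries. In CD8 libraries it had 6.96, 3.92 and 25.6 CPM in KO lymphoma libraries and 2.71, 9.12 and 12.7 CPM in WT lymphoma libraries, against 1.99, 2.67 and 1.39 CPM in KO control libraries and 1.02, 1.01 and 1.45 CPM in WT control libraries. Every lymphoma library was above every control library of its own genotype and co-receptor, and no control library exceeded 2.67 CPM. The log2 fold change of lymphoma over control was 3.27 ± 0.68 (SE) in CD4 KO, 3.48 ± 0.72 in CD4 WT, 2.57 ± 0.71 in CD8 KO and 2.80 ± 0.75 in CD8 WT. Kit encodes the receptor of stem cell factor. In CD4 libraries Kit had 22.9, 6.31 and 63.5 CPM in KO lymphoma libraries and 4.42, 12.4 and 12.3 CPM in WT lymphoma libraries, against 6.86, 8.65 and 7.25 CPM in KO control libraries and 2.09, 2.08 and 3.86 CPM in WT control libraries. In CD8 libraries Kit had 8.43, 6.42 and 29.1 CPM in KO lymphoma libraries and 6.84, 11.2 and 16.9 CPM in WT lymphoma libraries, against 9.33, 7.08 and 4.06 CPM in KO control libraries and 1.89, 4.96 and 3.26 CPM in WT control libraries. KO lymphoma 2 lay below the KO controls in CD4, and KO lymphoma 1 and 2 lay inside their range in CD8, while WT lymphoma and WT control libraries did not overlap. The Kit log2 fold change was 1.95 ± 0.63 in CD4 KO, 1.83 ± 0.70 in CD4 WT, 1.10 ± 0.58 in CD8 KO and 1.76 ± 0.61 in CD8 WT.

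Adgrg1, also called GPR56, encodes an adhesion receptor of stem cells that human natural killer cells and cytotoxic T cells carry as well. In CD4 libraries Adgrg1 had 82, 51.9 and 155 CPM in KO lymphoma libraries and 27.4, 64.1 and 101 CPM in WT lymphoma libraries, against 24.9, 24.1 and 18.9 CPM in KO control libraries and 6.15, 4.62 and 5.87 CPM in WT control libraries. CD8 libraries had 41.4, 38.7 and 170.3 CPM in KO lymphoma libraries and 27.3, 67 and 80.7 CPM in WT lymphoma libraries, against 24.2, 21.2 and 14.9 CPM in KO control libraries and 5.24, 8.22 and 7.73 CPM in WT control libraries. No lymphoma library overlapped with the controls of its genotype, and KO controls lay above WT controls throughout. Its log2 fold change with lymphoma was 2.04 ± 0.44 in CD4 KO, 3.47 ± 0.49 in CD4 WT, 2.05 ± 0.58 in CD8 KO and 3.04 ± 0.63 in CD8 WT. Muc13 encodes a transmembrane mucin known from gut epithelium and from blood progenitors. In CD4 libraries Muc13 had 14.9, 8.01 and 26.6 CPM in KO lymphoma libraries and 5.43, 10.9 and 16.7 CPM in WT lymphoma libraries, against 3.58, 2.71 and 2.79 CPM in KO control libraries and 1.21, 0.809 and 1.24 CPM in WT control libraries. CD8 libraries had 5.39, 5.22 and 29.4 CPM in KO lymphoma libraries and 4.96, 10.3 and 13.2 CPM in WT lymphoma libraries, against 2.45, 5.11 and 3.25 CPM in KO control libraries and 0.291, 1.35 and 2.05 CPM in WT control libraries. Lymphoma and control libraries did not overlap in either genotype, although the lowest CD8 KO lymphoma library, 5.22 CPM, and the highest CD8 KO control library, 5.11 CPM, nearly met.

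**Figure D1:**
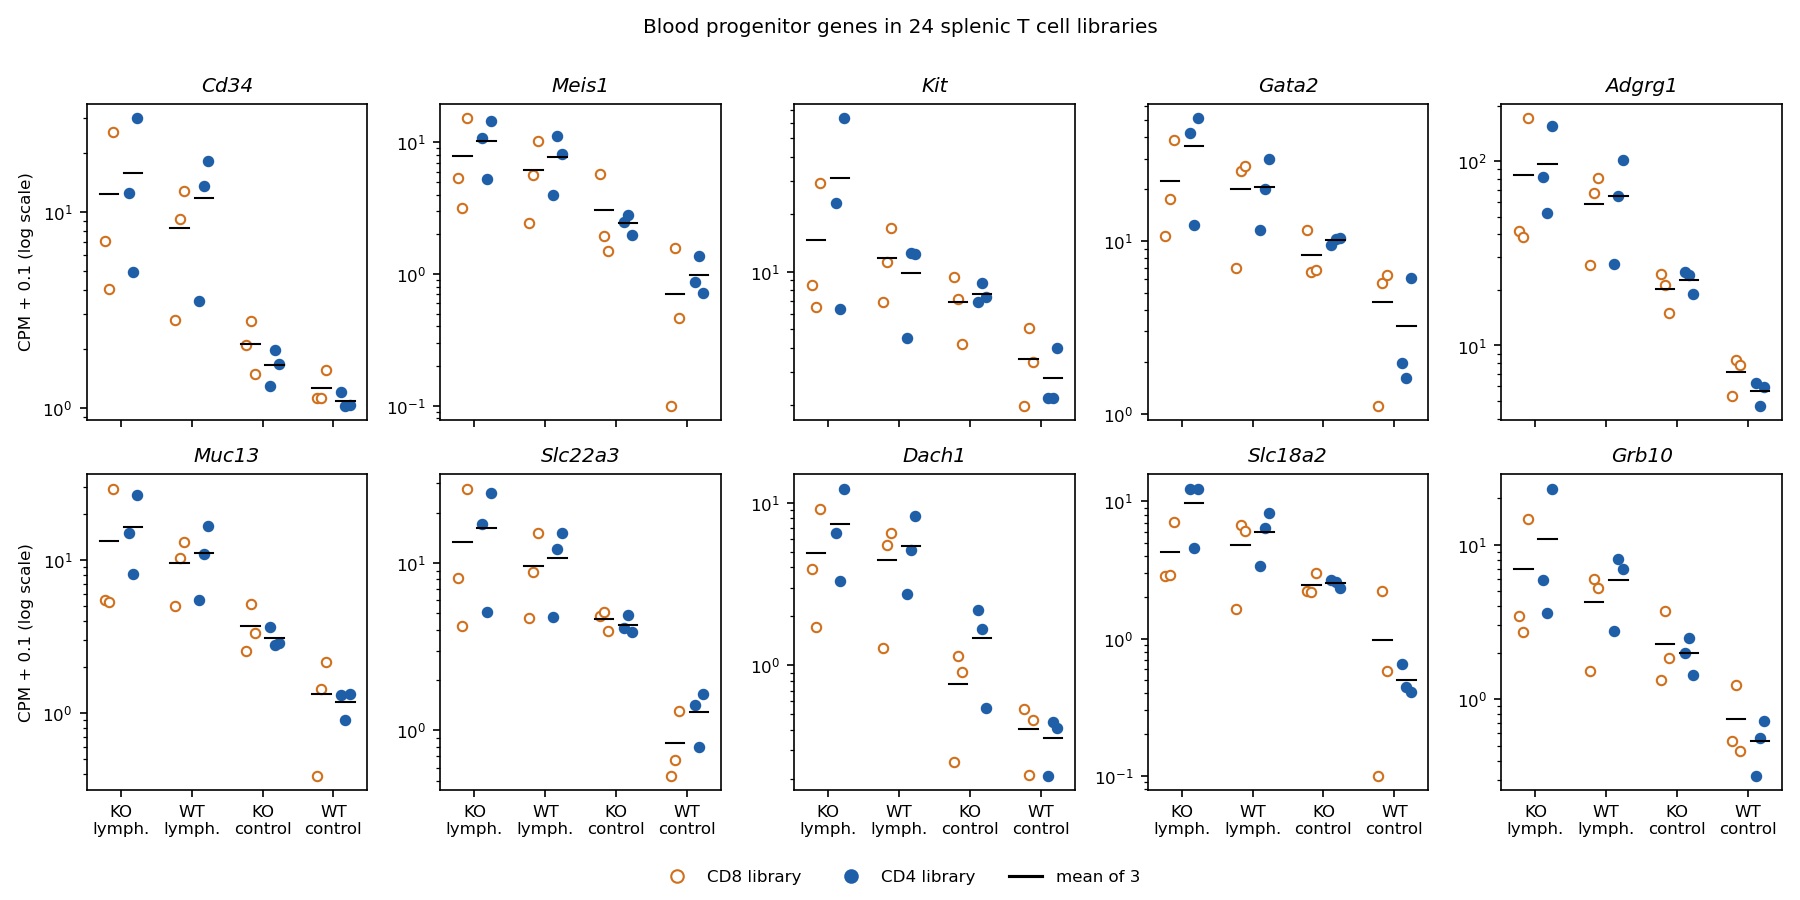
Level of each of the 10 genes in every library, as CPM + 0.1 on a log axis (0.1 lets libraries at 0 be drawn), with KO lymphoma, WT lymphoma, KO control and WT control from left to right; open circles are CD8 libraries, filled circles CD4 libraries, and black lines the mean of 3. By their means, WT controls are the lowest group, lymphoma groups are the highest, and KO controls lie between them. Lymphoma groups have the widest spread in CPM. On this log axis some CD8 WT control groups, such as those of Meis1 and Slc18a2 with a library at 0, spread more widely.

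Of the 3 transcription factors, Gata2 is required for blood stem cells and for mast cells and basophils. In CD4 libraries Gata2 had 42.3, 12.3 and 51.1 CPM in KO lymphoma libraries and 11.5, 19.9 and 29.7 CPM in WT lymphoma libraries, against 9.35, 10.2 and 10.4 CPM in KO control libraries and 1.87, 1.5 and 6.03 CPM in WT control libraries. In CD8 Gata2 had 10.6, 17.3 and 38.5 CPM in KO lymphoma libraries and 6.84, 25.3 and 27.2 CPM in WT lymphoma libraries, against 11.5, 6.50 and 6.73 CPM in KO control libraries and 1.02, 5.63 and 6.28 CPM in WT control libraries. In CD8 the KO lymphoma library with 10.6 CPM lay below the highest KO control, 11.5 CPM, and the WT groups were apart by only 6.84 against 6.28 CPM at their nearest. Meis1, a homeobox factor of stem cells and megakaryocyte progenitors, had 10.7, 5.21 and 14.5 CPM in KO lymphoma libraries and 3.92, 11 and 8.09 CPM in WT lymphoma libraries in CD4, against 2.39, 2.71 and 1.89 CPM in KO control libraries and 0.769, 1.27 and 0.618 CPM in WT control libraries. In CD8 it had 5.30, 3.05 and 15.1 CPM in KO lymphoma libraries and 2.36, 5.52 and 10.2 CPM in WT lymphoma libraries, against 5.66, 1.86 and 1.39 CPM in KO control libraries and 0, 1.46 and 0.362 CPM in WT control libraries. The CD8 WT control library at 0 allows up to 0.436 CPM, and CD8 KO control 1, at 5.66 CPM, stood above 2 of the 3 KO lymphoma libraries. Dach1, a dachshund family factor found in early progenitors, averaged 7.24 ± 4.52 CPM in CD4 KO lymphoma, 5.31 ± 2.80 CPM in CD4 WT lymphoma, 1.37 ± 0.839 CPM in CD4 KO control and 0.255 ± 0.127 CPM in CD4 WT control libraries (SD, n = 3 each). In CD8 it averaged 4.82 ± 3.78 CPM in KO lymphoma, 4.33 ± 2.77 CPM in WT lymphoma, 0.670 ± 0.463 CPM in KO control and 0.304 ± 0.17 CPM in WT control libraries. Its WT control values rest on 1 to 3 reads per library in CD4 as in CD8, so fold changes against them are imprecise.

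Of the 2 transporters, Slc18a2 encodes the vesicular monoamine transporter that loads histamine and other amines into granules. In CD4 libraries Slc18a2 had 12.3, 4.51 and 12.2 CPM in KO lymphoma libraries and 3.28, 6.33 and 8.09 CPM in WT lymphoma libraries, against 2.59, 2.5 and 2.23 CPM in KO control libraries and 0.549, 0.347 and 0.309 CPM in WT control libraries. CD8 libraries had 2.75, 2.83 and 7.02 CPM in KO lymphoma libraries and 1.53, 6.68 and 5.95 CPM in WT lymphoma libraries, against 2.14, 2.09 and 2.90 CPM in KO control libraries and 0, 2.14 and 0.483 CPM in WT control libraries. CD4 groups of the same genotype were apart, but in CD8 both genotypes overlapped between lymphoma and control, and the KO difference was the smallest of the 10 genes, 0.80 ± 0.78 on the log2 scale. Slc22a3 encodes an organic cation transporter of the plasma membrane that carries histamine and other amines. In CD4 libraries Slc22a3 had 17.1, 5.01 and 26.1 CPM in KO lymphoma libraries and 4.67, 12.1 and 15 CPM in WT lymphoma libraries, against 3.98, 4.79 and 3.79 CPM in KO control libraries and 1.32, 0.694 and 1.55 CPM in WT control libraries. In CD8 the same gene had 8.04, 4.13 and 27.8 CPM in KO lymphoma libraries and 4.60, 8.73 and 15.1 CPM in WT lymphoma libraries, against 4.74, 4.99 and 3.83 CPM in KO control libraries and 0.436, 0.563 and 1.21 CPM in WT control libraries. CD8 KO lymphoma 2 lay inside the range of the KO controls, and the WT groups were apart in both co-receptors. Grb10, an adaptor that binds receptor tyrosine kinases, averaged 10.8 ± 10.6 CPM in CD4 KO lymphoma, 5.81 ± 2.80 CPM in CD4 WT lymphoma, 1.87 ± 0.530 CPM in CD4 KO control and 0.433 ± 0.201 CPM in CD4 WT control libraries (SD, n = 3 each). In CD8 it averaged 6.87 ± 6.75 CPM in KO lymphoma, 4.16 ± 2.40 CPM in WT lymphoma, 2.19 ± 1.25 CPM in KO control and 0.642 ± 0.422 CPM in WT control libraries. The wide spread in CD4 KO lymphoma came from 1 library, at 23 CPM against 5.79 and 3.50 CPM in the others.

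Over the 10 genes, lymphoma libraries lay wholly above controls of the same genotype for 9 in CD4 KO, where Kit overlapped, for 10 in CD4 WT, for 4 in CD8 KO (Cd34, Adgrg1, Muc13 and Dach1) and for 9 in CD8 WT, where Slc18a2 overlapped. Of all genes tested, 8.8% were wholly higher in CD4 KO, 16.4% in CD4 WT, 14% in CD8 KO and 14.2% in CD8 WT. The genes were listed from this contrast, so their counts are not read against these shares. All 10 log2 fold changes were above 0 in each of the 4 comparisons. The median difference of log2 CPM over the 10 genes was 1.89 in CD4 KO, 2.92 in CD4 WT, 1.24 in CD8 KO and 2.69 in CD8 WT, where the median of all genes tested lay between -0.05 and -0.01. Without KO lymphoma 3 it was 0.61 in CD8 KO. Of the edgeR log2 fold changes, nearest to 0 were those of Slc18a2, at 0.80, and Kit, at 1.10, both in CD8 KO.

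In mice without a transplant, the 10 genes had higher mean levels in KO than in WT libraries of both co-receptors. In CD4 controls the 10 genes summed to 58.8, 61.5 and 50.6 CPM in KO libraries, against 15.4, 13.1 and 21.3 CPM in WT libraries, a ratio of means of 3.43. In CD8 controls the sums were 63.3, 56.2 and 41.0 CPM in KO libraries, against 10.8, 26.6 and 23.6 CPM in WT libraries, a ratio of 2.63. No KO control overlapped with a WT control in these sums. WT controls also entered the lymphoma contrast that gave the list, which favours genes that were low in them. The choice of genes and these differences are therefore not independent. Counts and p-values of the 10 genes between controls, given below, are a description and are not read against the shares of all genes.

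In CD4, every KO control was above every WT control for 10 of 10 genes, where 21.4% of all 12808 genes tested had no such overlap. Only Slc18a2 rose by the edgeR quasi-likelihood test, with a log2 fold change of 2.46 ± 0.52 (SE) and an adjusted p of 0.0399, and 1.94% of all genes rose. Of the 10, 8 had an unadjusted p under 0.05 (18.1% of all genes) and DESeq2 called 4. The call of Slc18a2 was lost when any 1 of the 6 control libraries was left out (adjusted p 0.0719 to 0.191), and with all 24 libraries in 1 fit (0.102). Adgrg1 followed with 1.96 ± 0.47 and an edgeR adjusted p of 0.0601. None of the other genes passed, with Dach1 at 2.32 ± 0.81, Grb10 at 2.05 ± 0.82, Slc22a3 at 1.76 ± 0.60, Gata2 at 1.67 ± 0.58, Kit at 1.46 ± 0.70, Muc13 at 1.41 ± 0.51 and Meis1 at 1.28 ± 0.50. Cd34 had the smallest difference, 0.56 ± 0.79, and an edgeR adjusted p of 0.754. Although Cd34 was the gene with the largest lymphoma difference in CD4 KO, its KO and WT controls differed by less than its standard error.

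In CD8, every KO control was above every WT control for 5 of 10 genes (Gata2, Adgrg1, Muc13, Slc22a3 and Grb10), where 12.1% of all 12650 genes tested had no such overlap. None of the 10 passed by the edgeR test, where 0.522% of all genes passed, 2 had an unadjusted p under 0.05 (14.7% of all genes), and DESeq2 called 1. The differences ran from 0.82 ± 0.80 for Cd34 to 2.61 ± 0.78 for Slc22a3, whose edgeR adjusted p was 0.18. CD8 WT control 1 was the lowest of the 6 CD8 control libraries for 7 of the 10 genes, with no read of Meis1 or Slc18a2. All 10 log2 fold changes of KO over WT controls stayed above 0 in both co-receptors under every alternative run and without any 1 library. The choice of genes favours this sign.

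**Figure D2:**
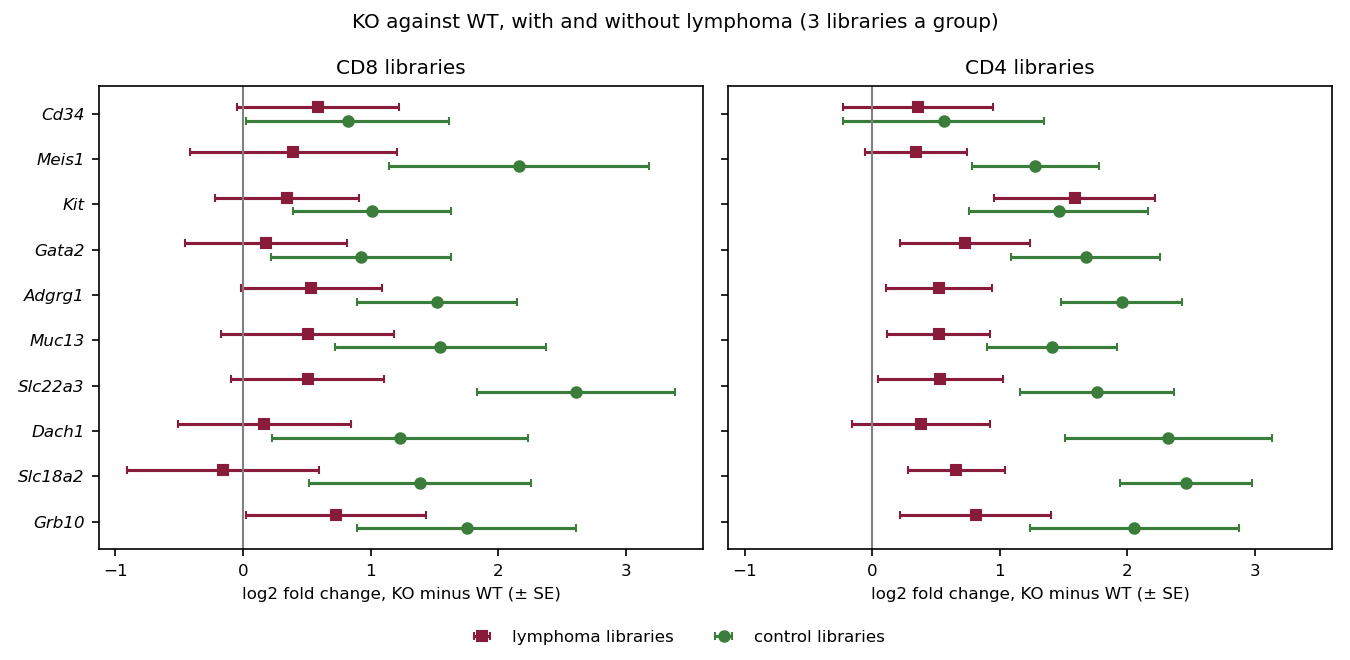
Log2 fold change of KO over WT for each gene (± SE, edgeR, 3 libraries a group), CD8 libraries on the left and CD4 libraries on the right; squares are lymphoma libraries and circles are control libraries. Control differences lie to the right of 0 for all 10 genes in both co-receptors, from 0.56 to 2.61, and lymphoma differences lie nearer to 0 for all but Kit in CD4.

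Markers of other cells differed between the same control libraries. The marker lists used here and below were chosen with earlier results of these data known. Counts of their genes are therefore a description, with the shares of all genes given for scale. In CD4, 13 of 14 natural killer and cytotoxic genes were higher in every KO control than in every WT control, and 4 rose by the edgeR test, Tbx21, Gzmb, Eomes and Klrg1. Of all genes tested in CD4, 21.4% were wholly higher and 1.94% rose. Of 13 monocyte and macrophage genes, 12 were wholly higher and 7 rose, the growth factor receptor gene Csf1r by 1.23 ± 0.22 among them. Of 17 platelet and megakaryocyte genes, 12 were wholly higher and 5 rose, Pf4 by 1.69 ± 0.35. Summed natural killer genes were 1167, 918 and 948 CPM in CD4 KO controls, against 245, 330 and 630 CPM in CD4 WT controls. Summed B cell genes were 383, 441 and 513 CPM in CD4 KO controls, against 26.9, 52.8 and 374 CPM in CD4 WT controls. None of the 10 B cell genes passed the edgeR test, 4 had an unadjusted p under 0.05 (18.1% of all genes) and DESeq2 called none. Summed erythroid genes were 5156, 35447 and 19353 CPM in CD4 KO controls, against 820, 449 and 9448 CPM in CD4 WT controls. T cell genes summed to 5810, 5115 and 5439 CPM in CD4 KO controls, against 7181, 6280 and 6261 CPM in CD4 WT controls, and 1 of the 18, Trbc1, fell, as 0.0703% of all genes did. The Y-linked genes Ddx3y, Eif2s3y and Uty summed to 2.69, 1.25 and 57.7 CPM in CD4 KO controls, against 68.1, 189 and 125 CPM in CD4 WT controls. In CD8, natural killer genes summed to 1867, 1813 and 1521 CPM in KO controls, against 634, 1072 and 1045 CPM in WT controls, and T cell genes to 4879, 4777 and 5153 CPM in KO controls, against 6294, 5487 and 5612 CPM in WT controls. Of the natural killer, macrophage and platelet genes, 10, 10 and 13 were wholly higher in CD8 KO controls (12.1% of all genes). By the edgeR test 1, 0 and 0 of them rose in CD8, where 0.522% of all genes passed. Without CD4 WT control 1 or any 1 of the CD4 KO controls none of the natural killer, macrophage or platelet genes passed, while 10, 4 and 2 did without CD4 WT control 3, and 1, 9 and 0 without CD4 WT control 2. The part of these other cells and of the sex of the mice in the differences of the 10 genes was not tested.

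The mouse identifiers in the labels begin with S or B, and what the letters stand for is not given. Every lymphoma pool holds S mice, KO lymphoma 1 with a B mouse as well, while KO control 2, KO control 3 and WT control 3 are B pools. The letters are thus not balanced between lymphoma and control, and their part in the lymphoma differences was not tested. Among S pools, 1 KO against 2 WT, the ratio of summed levels in controls was 4.13 in CD4 and 3.39 in CD8. Among B pools, 2 KO against 1 WT, it was 2.63 in CD4 and 2.06 in CD8. In CD8 the KO mean was above the WT mean for 9 of 10 genes among S pools, all but Dach1, whose ratio was 0.557 with 1 read in the KO library, and for 10 of 10 among B pools. With 1 or 2 libraries a side, these values carry no test.

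KO controls had mean levels between those of WT lymphoma and WT control libraries for 10 of 10 genes in both co-receptors. Genes chosen to be high with lymphoma and low in controls favour such an order, so it is given as a description. Taking the difference between WT lymphoma and WT control means as 100%, the KO control mean lay at 5.23% of it for Cd34 and at 69.6% for Kit in CD4, with a median of 27.9% over the 10 genes. In CD8 it lay between 9.10% for Dach1 and 44.0% for Grb10, with a median of 33.9%. Kit had nearly as high a mean in CD4 KO controls, 7.59 CPM, as in CD4 WT lymphoma libraries, 9.73 CPM, while Cd34 had 1.54 CPM in CD4 KO controls, against 11.7 CPM in CD4 WT lymphoma and 0.984 CPM in CD4 WT control libraries.

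With lymphoma, KO and WT libraries overlapped for all 10 genes, while 6.81% of all genes in CD4 and 8.03% in CD8 were wholly higher in KO. The 10 genes summed to 227, 105 and 414 CPM in CD4 KO lymphoma libraries, against 69.4, 163 and 225 CPM in CD4 WT lymphoma libraries, a ratio of means of 1.63. In CD8 lymphoma libraries they summed to 96.0, 85.9 and 367 CPM in KO, against 59.7, 155 and 194 CPM in WT, a ratio of 1.34. None of the 10 genes passed by the edgeR test in CD4, where 0% of all genes passed, 1 of the 10 (Kit, at 1.59 ± 0.63) had an unadjusted p under 0.05 (10.9% of all genes), and DESeq2 called none of the 10. None passed in CD8 either, where 0.245% of all genes passed, none had an unadjusted p under 0.05 (18% of all genes) and DESeq2 called none. The remaining CD4 differences ran from 0.35 ± 0.40 for Meis1 to 0.81 ± 0.59 for Grb10, and the CD8 differences from -0.16 ± 0.76 for Slc18a2 to 0.73 ± 0.71 for Grb10. Without KO lymphoma 3, Cd34, Dach1 and Grb10 turned lower in KO in CD4, at -0.46, -0.16 and -0.33, and all 10 genes were lower in KO in CD8, between -0.81 for Muc13 and -0.46 for Grb10.

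The difference between the lymphoma responses of KO and WT cells was fitted over all genes. By the edgeR test no gene passed in either co-receptor (0% in CD4, with 466 genes or 3.64% at an unadjusted p under 0.05, and 0% in CD8, with 442 or 3.49%), and DESeq2 called 1 gene in each, none of the 10. The 10 genes were chosen on lymphoma differences that enter this estimate, so their own values are a description, with no test. In CD4 they ran from -1.94 ± 0.98 for Dach1 to 0.13 ± 0.96 for Kit, with Slc18a2 at -1.80 ± 0.65 and Adgrg1 at -1.43 ± 0.63. In CD8 they ran from -2.11 ± 0.98 for Slc22a3 to -0.23 ± 1 for Cd34. Both responses share the control groups with the comparisons above, where KO controls were higher.

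Libraries of 1 group differed widely with lymphoma. KO lymphoma 3 was the highest of the 6 lymphoma libraries for 9 of 10 genes in CD4, all but Slc18a2, and for 10 of 10 in CD8. WT lymphoma 1 was the lowest for 10 genes in CD4 and for 8 in CD8. The sum of the 10 genes had a mean of 248 ± 156 CPM in CD4 KO lymphoma and 152 ± 78.2 CPM in CD4 WT lymphoma libraries, against 57.0 ± 5.67 CPM in CD4 KO control and 16.6 ± 4.26 CPM in CD4 WT control libraries (SD, n = 3 each). In CD8 it was 183 ± 159 CPM in KO lymphoma and 136 ± 68.9 CPM in WT lymphoma libraries, against 53.5 ± 11.4 CPM in KO control and 20.3 ± 8.40 CPM in WT control libraries. KO lymphoma 3 also had fewer T cell gene counts than most libraries, 2938 CPM in CD4 and 3084 CPM in CD8, and its Atm level, 26.9 CPM in CD4 and 40.1 CPM in CD8, was the lowest of its co-receptor. Y-linked genes summed to 51.5 CPM in CD4 and 46.4 CPM in CD8 in KO lymphoma 3, against 0.986 to 3.70 CPM in the other KO lymphoma libraries. They summed to 117 CPM in CD4 and 161 CPM in CD8 in WT lymphoma 3, which had the highest sum of the 10 genes among WT lymphoma libraries, against 1.41 to 4.80 CPM in the others. The part of sex in this spread was not tested. Without Adgrg1, the other 9 genes summed to 145, 52.9 and 259 CPM in CD4 KO lymphoma, against 33.9, 37.4 and 31.7 CPM in CD4 KO control libraries, with KO lymphoma 3 again the highest.

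**Figure D3:**
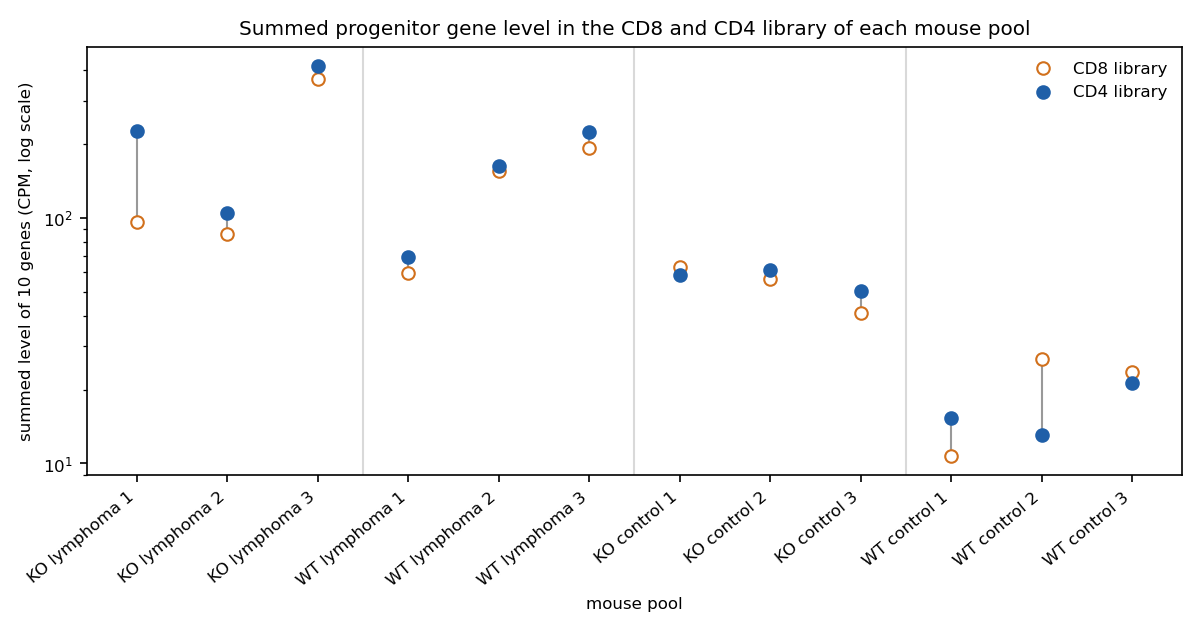
Summed CPM of the 10 genes, on a log axis, in the CD8 library (open circle) and the CD4 library (filled circle) of each of the 12 mouse pools, joined by a line. The 2 libraries of a pool lie close together in most pools, and the pools span 10.8 to 414 CPM.

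CD8 and CD4 libraries of the same pool had similar sums. The ratio of CD8 over CD4 was 0.423 in KO lymphoma 1, whose CD8 library had the lowest T cell gene sum, and otherwise ran from 0.820 to 0.950 in the other lymphoma pools. In controls it ran from 0.700 to 2.04, with 2.04 in WT control 2. None of the 10 genes passed between CD8 and CD4 by the edgeR test in KO lymphoma, WT lymphoma, KO control or WT control, where 2.35%, 2.54%, 4.95% and 3.48% of all 13232 genes passed. None had an unadjusted p under 0.05, where 11.5%, 9.36%, 17.4% and 10.7% of all genes had one, and DESeq2 or the mouse pool as a block called none. The furthest from 0 were Slc18a2 in KO lymphoma, -1.07 ± 0.60, and in WT control, 1.17 ± 0.87. Of the 10 edgeR log2 fold changes of CD8 over CD4, 0, 2, 6 and 8 were above 0 in KO lymphoma, WT lymphoma, KO control and WT control. Their standard errors ran from 0.51 to 1.14 in this fit, which does not pair the libraries of a pool. Moderate differences in either direction were not detectable with it.

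The 10 genes varied together within groups. Each gene's log2 CPM was taken as a deviation from the mean of its group, over all 24 libraries. The 45 pairs of genes correlated with r from 0.313 to 0.932 and a median of 0.750, while other genes had a median r of 0.002 with the mean of the 10. Adgrg1 followed the mean of the other 9 most closely (r = 0.945) and Dach1, the gene with the fewest reads in WT controls, least (r = 0.647). Without both KO lymphoma 3 libraries the median over pairs was 0.670 and the lowest 0.119. These values describe libraries that share mice between CD8 and CD4, depth and the mix of cells. Among the 10 genes outside the list most like its mean were Prss34 (r = 0.951), Pex11a, Ptger3, Vmp1, Gna15, Mt2, Arap3, Mcpt8 and Ctdspl (r = 0.902), over 24 libraries, of which Prss34 and Mcpt8 encode proteases of mouse basophils. Ranked by Spearman's rho, 6 of the 10 stayed among the first 10, and 5 did without KO lymphoma 3.

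Of 23 other genes of blood stem cells and progenitors, 20 were tested in CD4 and 18 in CD8, and few passed with lymphoma. Angpt1, a ligand of the Tek receptor, rose in CD4 WT by 2.71 ± 0.37 (edgeR adjusted p = 0.00594) and in CD8 WT by 2.35 ± 0.34 (0.00796). In CD4 it had 50.8, 19.7 and 32.1 CPM in KO lymphoma and 13.6, 28.0 and 33.2 CPM in WT lymphoma libraries, against 13.2, 11.7 and 12.7 CPM in KO control and 3.08, 3.35 and 4.64 CPM in WT control libraries. Its groups stood in the order described for the 10 genes. Tal1, a transcription factor of early blood cells, rose in CD8 WT by 2.86 ± 0.58 (edgeR adjusted p = 0.0445), and Sox4 in CD8 KO by 1.28 ± 0.28 (0.0495). Out of 20 genes of this list tested in CD4, none passed in KO and 1 in WT, with 15 and 14 at an unadjusted p under 0.05 (15.2% of all genes in each). Out of 18 tested in CD8, 1 passed in KO and 2 in WT, while 0%, 1.62%, 1.39% and 1.26% of all genes rose in CD4 KO, CD4 WT, CD8 KO and CD8 WT. DESeq2 called 6, 9, 7 and 6 in the same order. Without KO lymphoma 2, which was low for the 10 genes too, 7 passed in CD4 KO and 6 in CD8 KO, and without WT lymphoma 1, 5 passed in CD4 WT and 5 in CD8 WT. No gene of the list passed in CD4 WT without WT control 1, in CD8 WT without WT control 3, or in CD8 KO without any 1 of the other KO libraries. The median log2 fold change of the list was 1.39 in CD4 KO, 1.73 in CD4 WT, 1.48 in CD8 KO and 1.60 in CD8 WT, and 20 of 20 and 18 of 18 were above 0. Between CD4 controls, Angpt1 rose in KO by 1.71 ± 0.37 and Hoxb4, a homeobox gene of stem cells, by 0.94 ± 0.21, both calls being lost when any 1 control library was left out. Some genes of this list, Cdk6, Sox4 and Myb among them, are also made by T cells.

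Of the 16 mast cell and basophil genes, 10 were tested, and 1 rose in each of 2 lymphoma comparisons. Hdc, which makes histamine, rose in CD4 WT by 1.68 ± 0.35 (edgeR adjusted p = 0.0334), and Prss34 rose in CD8 KO by 5.03 ± 1.12 (0.0497). The median log2 fold change of the list was 0.63 in CD4 KO, 0.86 in CD4 WT, 0.45 in CD8 KO and 0.70 in CD8 WT. Above 0 were 8, 6, 7 and 9 of the 10 tested in that order, and the lowest were at -1.85, -0.66, -0.51 and -1.16. In CD4 Prss34 had 24.0, 6.91 and 99.4 CPM in KO lymphoma and 4.17, 22.0 and 23.4 CPM in WT lymphoma libraries, against at most 2.92 CPM in any control. Its highest and lowest lymphoma libraries were those of the 10 genes, KO lymphoma 3 and WT lymphoma 1. Prss34 was the gene outside the list most like their mean (r = 0.951), so this order is not a separate observation. No gene of the list passed in CD4 KO or CD8 WT, where 6 and 6 had an unadjusted p under 0.05 (15.2% and 17.8% of all genes) and DESeq2 called 2 and 1. Without KO lymphoma 2, 2 genes of the list passed in CD4 KO and 2 in CD8 KO, and without WT lymphoma 1, 4 passed in CD4 WT, while leaving out any 1 of the other libraries gave 0 in each. The mast cell proteases and receptor Tpsab1, Tpsb2, Mcpt4 and Mrgprb2 were at or near 0, with no more than 0.121, 0.764, 0.892 and 0.294 CPM in any library, and Fcer1a, which mast cells and basophils share, had no more than 2.02 CPM. Cma1, another chymase, differed from this with 7.76, 8.02 and 9.81 CPM in CD4 KO controls, against 0.769, 1.5 and 2.94 CPM in CD4 WT controls, where it rose by 2.26 ± 0.52. With 1 library left out, a gene of the list passed there only without WT control 3. It was not higher with lymphoma in KO, with 3.7, 2.5 and 0.884 CPM in CD4 KO lymphoma libraries.

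**Figure D4:**
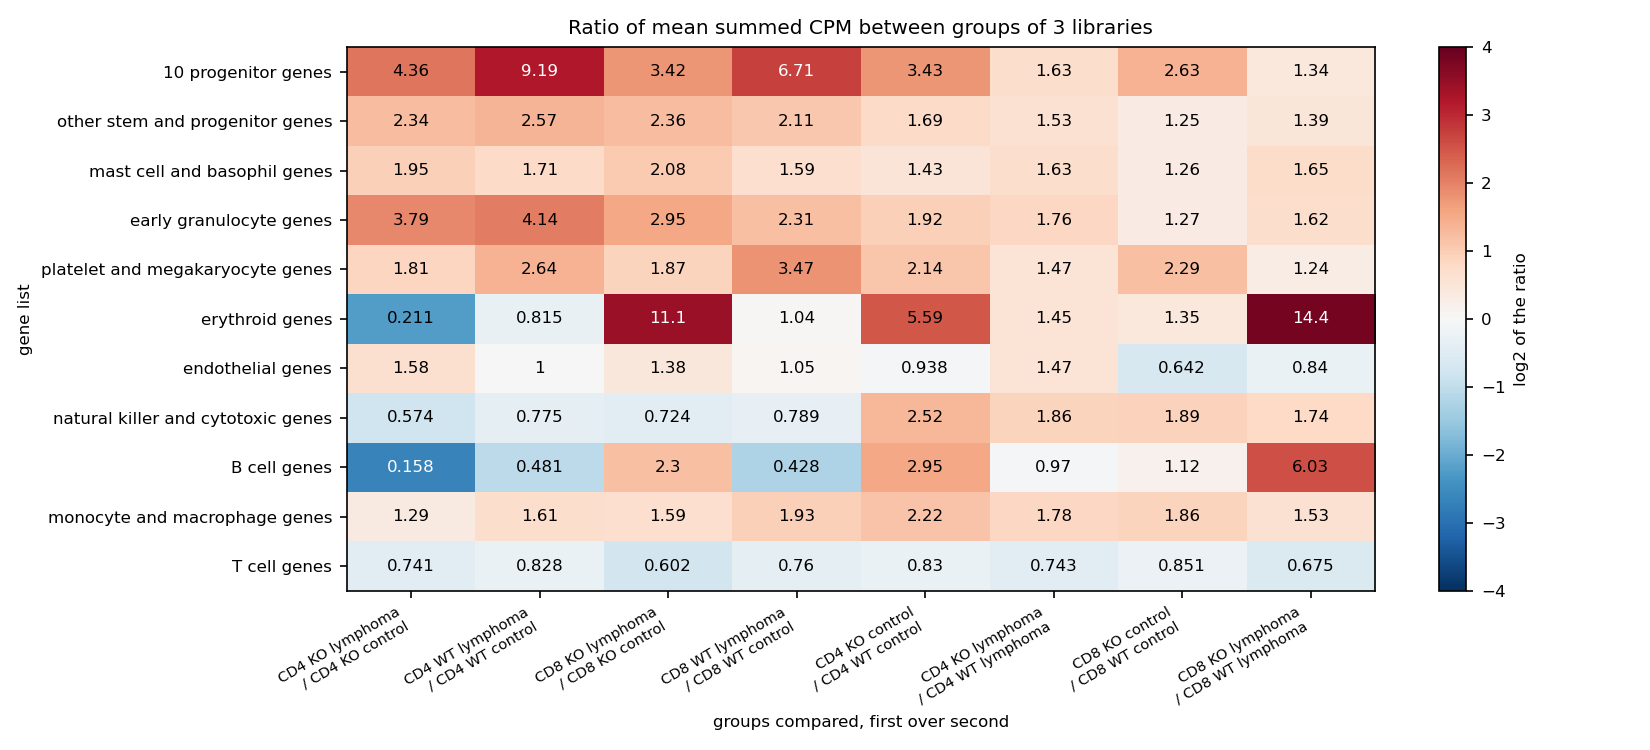
Ratio of mean summed CPM between pairs of groups of 3 libraries for the 10 genes and 10 lists of marker genes, coloured by its log2. The ratios of the 10 progenitor genes with lymphoma, 4.36 in CD4 KO, 9.19 in CD4 WT, 3.42 in CD8 KO and 6.71 in CD8 WT, reflect how the genes were chosen and are a description. Erythroid genes have a ratio with lymphoma of 11.1 in CD8 KO and of 0.211 in CD4 KO. The CD8 KO lymphoma libraries behind the 11.1 ran from 1502 to 66349 CPM and overlapped with their controls. The CD4 KO lymphoma libraries behind the 0.211 ran from 2161 to 6270 CPM, against 5156 to 35447 CPM in their controls, and also overlapped. T cell genes lie below 1 in every column.

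Markers of further cells also differed between lymphoma and control libraries. B cell genes summed to 97.9, 61.1 and 52.5 CPM in CD4 KO lymphoma libraries, against 383, 441 and 513 CPM in CD4 KO controls, and natural killer genes to 663, 563 and 516 CPM in CD4 KO lymphoma libraries, against 1167, 918 and 948 CPM in CD4 KO controls. None of these 10 B cell and 14 natural killer genes passed by the edgeR test there, where 0 of all genes passed. An unadjusted p under 0.05 was found for 10 and 10 (15.2% of all genes), and DESeq2 called 6 and 5 lower. In CD4 WT and CD8 WT the sums of both lists overlapped between lymphoma and control, as natural killer sums did in CD8 KO. In CD8 KO, B cell genes overlapped, with 874, 191 and 43.5 CPM in lymphoma libraries, against 171, 130 and 181 CPM in controls. Of the platelet and megakaryocyte genes, 7 rose in CD4 WT, 7 in CD8 WT and 1 in CD8 KO, with Itga2b, an integrin of platelets and megakaryocytes, at 1.81 ± 0.27 in CD4 WT. Mpo, the myeloperoxidase of early granulocytes, rose in CD4 WT by 4.78 ± 1.05 (edgeR adjusted p = 0.0487). Of 9 endothelial genes 5 were tested, and 2 of these, Kdr and Esam, rose in CD4 WT and CD8 WT, while Pecam1, the most abundant, was at -0.12 ± 0.25 in CD4 WT and -0.01 ± 0.17 in CD8 WT. The summed endothelial level was 339 CPM in CD4 WT lymphoma and 338 CPM in CD4 WT control libraries on average. Pecam1 made up 318 and 332 CPM of these sums, which therefore say little about the other genes. Egfl7 and Plvap, also tested, did not pass, at 3.155 ± 0.99 and 1.83 ± 0.79 in CD4 WT. In CD8 WT they were at 3.83 ± 0.89 and 1.97 ± 0.59. Both were wholly higher with lymphoma there, as were 16.4% of all genes in CD4 WT and 14.2% in CD8 WT. Cdh5, Tek, Emcn and Cldn5 were too low to be tested. Without WT control 1 in CD4, 0 platelet, 0 early granulocyte and 0 endothelial genes passed, and without WT control 3 in CD8, 1 platelet and 0 endothelial genes did. In CD8 KO, 4 T cell genes fell, Cd3e, Cd2, Thy1 and Cd247, by 0.68 to 1.05 on the log2 scale, where 0.791% of all genes fell and 27.3% had an unadjusted p under 0.05. Without KO lymphoma 2, 18 of the 18 fell there, and without any 1 of the other KO libraries none did. T cell genes summed to 4047, 5147 and 2938 CPM in CD4 KO lymphoma libraries, against 5810, 5115 and 5439 CPM in CD4 KO controls, and to 5989, 5614 and 4721 CPM in CD4 WT lymphoma libraries, against 7181, 6280 and 6261 CPM in CD4 WT controls. The part of all these cells in the differences of the 10 genes was not tested. Early granulocyte genes summed to 262, 134 and 774 CPM in CD4 KO lymphoma libraries, against 100.2, 114 and 95.0 CPM in CD4 KO controls, and to 115, 264 and 286 CPM in CD4 WT lymphoma libraries, against 39.98, 56.1 and 64.8 CPM in CD4 WT controls.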

How the data were processed

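Salmon 0.11.3 and the human build GRCh38 are named in the submitters' processing notes, with no role given, although the samples and gene symbols are mouse. Per the labels' protocols, splenic T cells were isolated with a kit and libraries made with a 3′ tag kit, so a count reads the end of a transcript. The authors deposited estimated counts, 1 value per gene and library and nearly all whole numbers, and name no normalization. Of 34113 genes, 2 with a letter in place of a number were dropped. Counts were rounded and tested with edgeR 4.0.16 (R 4.3.3): filterByExpr (minimum count 10, minimum total 15), trimmed mean of M values, robust quasi-likelihood test and Benjamini-Hochberg adjustment over all genes tested at 0.05. CD4 and CD8 libraries were fitted apart, 12 each (12808 and 12650 genes), and compared in a fit of 24 (13232 genes). Levels are CPM of the library total. Differences of log2 CPM use a prior count of 2. The code was tested on simulated data.

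The 10 genes and the marker lists were chosen with earlier results of these data known. Named were all 10 genes, Atm, up to 4 genes per list that passed in the lymphoma comparisons, and the 10 genes most like the mean of the 10, of which 1 is not reported here, ranked by Pearson correlation, with Spearman and leaving out KO lymphoma 3 as alternatives. List genes of the control comparison of KO and WT, Pf4, Csf1r, Prss34 levels, Cma1 and genes at or near 0 were chosen after their values were seen. Alternatives were DESeq2 1.42.0, DESeq2 size factors or plain library totals for scaling, a stricter filter (at least 30 counts in 3 libraries) or none, another prior count (0.5), all 24 libraries in 1 fit, a replicate block, and each library left out in turn. CD8 and CD4 libraries from the same mice, paired by the identifiers in the labels, had residual correlations from -0.018 to 0.525 (median 0.339, 12 pairs). Libraries that share only a number had a median of 0.009 over 36 pairs. Nothing in the labels says that pools were isolated on different days, so p-values measure the spread between these pools. Promoter windows are from RefSeq (GRCm38.p6). Depth and its limits are given in the results, and intervals of counting error alone were not used.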

Additional observations from a re-analysis of the deposited data

How the results depend on the processing

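Over the alternatives, each log2 fold change of the 10 genes with lymphoma, and of KO over WT controls, stayed above 0. The genes were chosen on lymphoma differences in these same libraries, which favours both signs, so this is a description. DESeq2 called more genes: of the 10, 4 between CD4 controls and 1 between CD8 controls, of the other stem and progenitor genes 6, 9, 7 and 6 with lymphoma in CD4 KO, CD4 WT, CD8 KO and CD8 WT, and 4 between CD4 controls, and of the mast cell and basophil genes 2, 5, 2 and 1 with lymphoma in the same order, and 2 between CD4 controls. Over all genes DESeq2 called 343, 672, 1496 and 799 with lymphoma in that order, against 0, 216, 276 and 180 by edgeR, 796 and 373 between CD4 and CD8 controls, against 257 and 66, and 78 and 506 between KO and WT lymphoma, against 0 and 31. Without a filter, 0 progenitor and 0 mast cell genes passed in CD8 KO. With all 24 libraries in 1 fit, 3 progenitor genes passed in CD4 WT and 2 in CD8 KO, with 2 mast cell genes, and 0 of the 10 genes between CD4 controls.

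The replicate number as a block, though numbers pair no mice within a co-receptor, gave 3 progenitor genes in CD4 WT, 0 in CD8 KO and 1 between CD4 controls, 0 mast cell genes in CD8 KO and between CD4 controls, and turned Slc18a2 between KO and WT CD8 lymphoma to 0.011. With it 25 genes were called in CD8 KO, against 276 without it. The mouse pool as a block gave 542, 457, 1186 and 637 genes between CD8 and CD4 in KO lymphoma, WT lymphoma, KO control and WT control, against 311, 336, 655 and 460, and none of the 10.

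Leaving out 1 library, the median difference over the 10 genes with lymphoma ran from 1.55 to 2.23 in CD4 KO, 2.58 to 3.42 in CD4 WT, 0.61 to 1.71 in CD8 KO and 2.26 to 3.19 in CD8 WT, and 0 of the 10 passed between CD4 controls. Progenitor genes called ran from 0 to 7, 0 to 5, 0 to 6 and 0 to 5, mast cell genes from 0 to 2, 0 to 4, 0 to 2 and 0 to 0, and between CD4 controls 0 to 0 and 0 to 1. Over all genes, 501 passed in CD4 KO and 1861 in CD8 KO without KO lymphoma 2, and 0 between CD4 controls without WT control 1. Between KO and WT lymphoma in CD4 the fold changes of Cd34, Dach1 and Grb10 ran from -0.46 to 0.84, -0.16 to 0.85 and -0.33 to 1.25, lowest without KO lymphoma 3, and Cd34 was at -0.08 without WT lymphoma 1. In CD8, without KO lymphoma 3 as the lowest, ranges were -0.56 to 0.99 for Cd34, -0.50 to 0.94 for Meis1, -0.62 to 0.66 for Kit, -0.48 to 0.49 for Gata2, -0.51 to 0.84 for Adgrg1, -0.81 to 0.85 for Muc13, -0.61 to 0.95 for Slc22a3, -0.63 to 0.54 for Dach1, -0.73 to 0.20 for Slc18a2 and -0.46 to 1.09 for Grb10. Without CD8 WT lymphoma 1, Gata2 was at -0.22 and Dach1 at -0.27. Slc18a2 was above 0 without CD8 WT lymphoma 2, KO lymphoma 1 or KO lymphoma 2, at 0.20, 0.049 and 0.022. The cause of these shifts was not tested. With 1 to 3 reads in several WT controls, depth limits the fold changes of Dach1, Grb10, Slc18a2 and Meis1.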
